A study of Mus musculus with 2 samples.

Results

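The 10 genes described here encode enzymes that interconvert or inactivate steroid hormones, or that carry the name of such a family: the 11-beta-hydroxysteroid dehydrogenases Hsd11b1 and Hsd11b2, the 17-beta-hydroxysteroid dehydrogenases Hsd17b1, Hsd17b2, Hsd17b3, Hsd17b4, Hsd17b11 and Hsd17b12, and the steroid 5-alpha reductases Srd5a1 and Srd5a2. They were picked out by gene symbol, a rule that holds no measured value although the set was drawn up with earlier results of these data known, and are 10 of 55536 annotated genes and of 22028 protein-coding genes. Their RNA was measured by total RNA sequencing in the adrenal gland of male B6CASTF1/J mice aged 4 days. These are F1 animals of a cross of C57BL/6J with CAST/EiJ, a wild-derived inbred strain. There was 1 group of 2 biological replicates, which the labels number as different males although both carry one donor label. No second condition was present, so the values describe levels within the gland and the difference between the 2 libraries.

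The 11-beta-hydroxysteroid dehydrogenases set how much active glucocorticoid a cell sees: the type 1 enzyme regenerates corticosterone from its inactive 11-keto form, and the type 2 enzyme does the reverse and so shields the mineralocorticoid receptor in the kidney. The 17-beta-hydroxysteroid dehydrogenases were named for the conversion of weak into potent sex steroids or back. Several members act on fatty acids in peroxisomes or the endoplasmic reticulum, or lie on lipid droplets. The 5-alpha reductases turn testosterone into dihydrotestosterone and also reduce progesterone and glucocorticoids. Most of the hydroxysteroid dehydrogenases listed here belong to the short-chain dehydrogenase family, whose active site holds a tyrosine and, 4 residues on, a lysine.

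The codons of both residues are printed for 6 of the dehydrogenases because they are a feature these genes share in sequence. Those of the other dehydrogenases are not reported here, which does not mean that the pair is absent. In the coding sequence of Hsd11b1-205, Hsd17b3-201 or, for the others, the highest transcript of the gene, the pair was found as a serine, then 11 to 13 residues, then tyrosine, 3 residues and lysine. The sequences are from GENCODE release M21 transcripts (mm10), 5′ to 3′ on the gene's own strand, with the tyrosine and lysine codons in capitals. The stretch lies in 1 coding exon of Hsd11b1 (chr1:193223716-193223742, minus strand), Hsd11b2 (chr8:105522788-105522814, plus strand), Hsd17b1 (chr11:101079203-101079229, plus strand) and Hsd17b2 (chr8:117753209-117753235, plus strand), and is split by an intron in Hsd17b3 (chr13:64062940-64063108, minus strand) and Hsd17b12 (chr2:94043933-94045381, minus strand).
Hsd11b1: gctcccTACtctgcaagcAAGtttgct
Hsd11b2: gcagccTACggcacctccAAGgcagca
Hsd17b1: gaagtgTACtgtgccagcAAGtttgcg
Hsd17b2: tcagctTATgcagccacaAAGgcagct
Hsd17b3: agcctgTACtcagcttccAAGgctttt
Hsd17b12: acaatcTACtctgcaaccAAGgccttt
All 6 printed use AAG for the lysine, and Hsd17b2 is the one of them with TAT in place of TAC for the tyrosine. The pair falls at residues 183 and 187 of 292 in Hsd11b1, at 232 and 236 of 386 in Hsd11b2 and at 233 and 237 of 381 in Hsd17b2. The reductases Srd5a1 and Srd5a2 belong to another enzyme family. Between the transcripts searched, 1 for each member (Hsd11b1-205 and Hsd17b3-201 among them), no 31-base word was shared.

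Summed over annotated genes, replicate 1 had 32231301 expected counts and replicate 2 had 30292851, so that 3 counts, the limit that a count of 0 allows, were worth 0.0931 and 0.0990 CPM, counts scaled to the library's gene counts. All 10 markers of the adrenal cortex and all 10 of chromaffin cells were at or above 1 TPM, the length-scaled share of transcripts. The replicates stood apart in genes of other organs. The 12 liver markers summed to 234 TPM in replicate 1 and 6121 TPM in replicate 2, and all 12 were higher in replicate 2, by a median log2 ratio of -4.87 for replicate 1 over replicate 2 (range -5.05 to -3.99). The 10 kidney markers summed to 8.63 TPM in replicate 1 and 3.47 TPM in replicate 2. Of the 6 kidney markers tested, 5 were over 2-fold higher in replicate 1 (median log2 ratio 1.45). All 8 skeletal muscle markers were higher in replicate 2 as well, with sums of 655 TPM in replicate 1 and 1207 TPM in replicate 2, and so were all 8 erythroid markers, with 2413 and 4425 TPM; the median log2 ratio was -0.79 in both lists.

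The members spanned from 33.5 TPM to under 0.1 TPM. At a mean of 1 TPM or more, 8 of 10 were detected, against 60.4% of protein-coding and 27.2% of all annotated genes, and 4 of 10 reached 10 TPM. Their median was 7.35 TPM, beside 3.35 TPM over protein-coding genes. In descending order of the mean they were Hsd17b4, Hsd17b12, Hsd17b11, Srd5a2, Hsd11b1, Srd5a1, Hsd17b2, Hsd11b2, Hsd17b1 and, at under 3 counts per library, Hsd17b3. The ranges of Hsd17b4 and Hsd17b12 overlapped. The ranges of Hsd11b1 and Srd5a1, of Srd5a1 and Hsd17b2 and of Hsd17b2 and Hsd11b2 also overlapped, and each of these 3 pairs stood in opposite order in the 2 libraries. The other neighbours in the order did not overlap, although the lower value of Srd5a2, 14.5 TPM, lay just above the higher value of Hsd11b1, 14.2 TPM, both in replicate 2. Hsd17b4, Hsd17b12 and Hsd17b11 together took 74.0% of the members' summed TPM in replicate 1 and 68.9% in replicate 2.

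**Figure D1:**
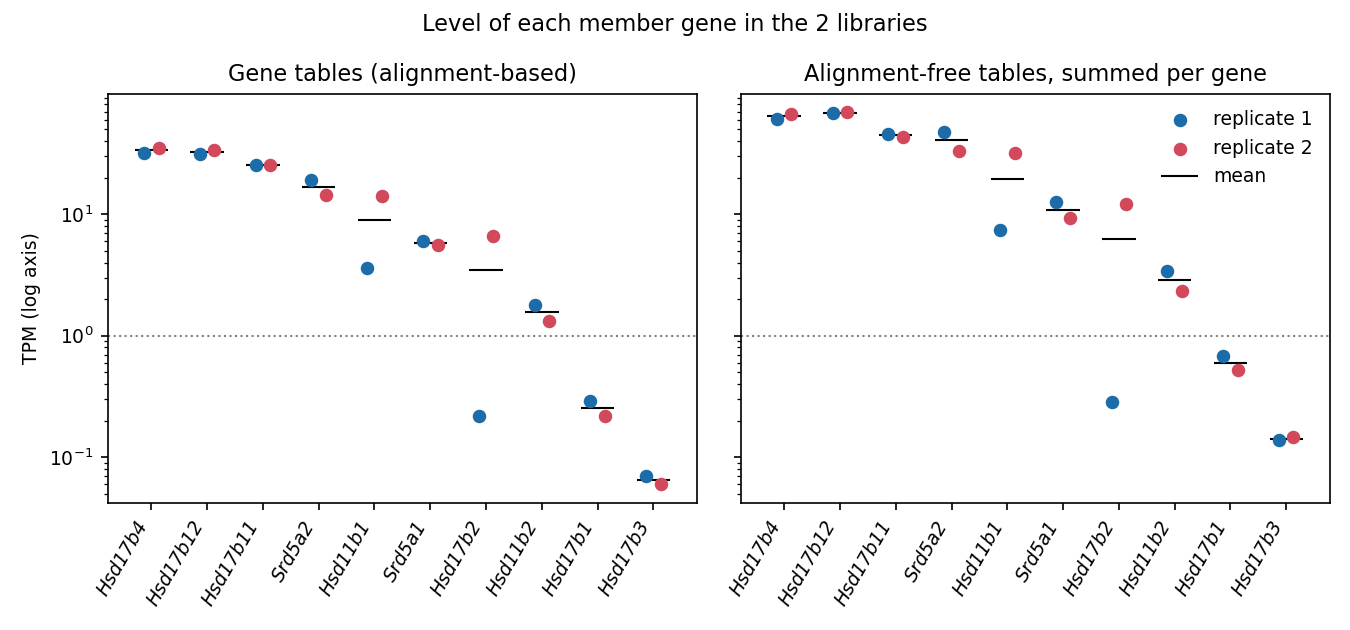
TPM of each member on a log axis in replicate 1 (left point of each pair, blue) and replicate 2 (right point, red), with the mean as a bar, in the gene tables (left) and in the alignment-free tables summed per gene (right); the dotted line is 1 TPM. Hsd11b1 and Hsd17b2 are the members whose 2 points lie far apart, and Hsd17b1 and Hsd17b3 lie below the line in both panels.

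Of the 11-beta-hydroxysteroid dehydrogenases, the glucocorticoid-regenerating Hsd11b1 was the more abundant and the less even. Hsd11b1 (ENSMUSG00000016194.14, chr1:193221634-193264075, minus strand) had 3.60 TPM in replicate 1 and 14.2 in replicate 2, or 8.89 ± 7.48 TPM (SD, n = 2), from 155 and 554 counts. Replicate 2 was 3.72-fold higher, with a log2 ratio of replicate 1 over replicate 2 of -1.89 and a 95% interval of -2.16 to -1.64 (adjusted p = 2.73e-55, exact binomial test of the 2 libraries' counts over all 18160 genes kept). Hsd11b1 was the 1 member of 7 tested that passed this test with over 2-fold, where 3.99% of all genes tested did and 3.38% did so with replicate 2 higher. That test compares 2 libraries of 1 group, and its p-values and intervals cover counting error only. The liver markers were higher in replicate 2 too, with log2 ratios of -5.05 to -3.99, and the muscle and erythroid markers less so. The part of these lists in the Hsd11b1 difference was not tested. In bulk tissue, fewer cells of a type and less RNA per cell cannot be told apart.

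Hsd11b2 (ENSMUSG00000031891.6, chr8:105518755-105523988, plus strand), the glucocorticoid-inactivating enzyme, had 1.80 TPM in replicate 1 and 1.31 in replicate 2, or 1.56 ± 0.346 TPM (SD, n = 2), from 104 and 68 counts. Replicate 1 was higher by a log2 ratio of 0.55 (95% interval 0.10 to 1.02), under 2-fold, with an adjusted p of 0.0481 in the exact binomial test. That p lay between 0.0315 and 0.0698 over the alternatives tried and did not pass 0.05 with total counts, with spike-ins or without the filter on low counts. The 6 kidney markers tested were also higher in replicate 1, Aqp2 of the collecting duct with 1.21 and 0.41 TPM and the proximal tubule transporter Slc34a1 with 3.52 and 1.24 TPM in replicates 1 and 2, and their part in the Hsd11b2 level was not tested. Hsd11b1 exceeded Hsd11b2 in both libraries, by 1.00 on the log2 scale in replicate 1 and 3.44 in replicate 2 (2.22 ± 1.72, SD, n = 2).

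H6pd, which makes the NADPH that drives the type 1 enzyme in the endoplasmic reticulum, had 44.1 TPM in replicate 1 and 42.5 in replicate 2. Slc37a4, the transporter that brings glucose 6-phosphate to H6pd, had 11.4 and 12.8 TPM. Of 6 steroid receptors 4 were detected. Of the 4 tested 0 were called, where 3.99% of all genes tested were. Without the filter on low counts 1 of 6 was called, Pgr, higher in replicate 1 with 24 counts against 8 in replicate 2. That held for 0.771% of all genes tested without the filter. The glucocorticoid receptor Nr3c1 averaged 19.9 ± 2.22 TPM and the mineralocorticoid receptor Nr3c2 2.92 ± 1.12 TPM (SD, n = 2). Hsd11b1 stood far below Cyp11b1, the last enzyme of corticosterone synthesis, with log2 ratios of -7.95 in replicate 1 and -5.55 in replicate 2. Cyp11b1 itself had 888 TPM in replicate 1 and 664 in replicate 2, a smaller difference than that of Hsd11b1 and in the other direction. All 7 genes of glucocorticoid synthesis were detected, at a median of 776 TPM, and all 7 were higher in replicate 1. Cyp11b2, the aldosterone synthase, was the 1 called, with 144 TPM in replicate 1 and 70.4 TPM in replicate 2. In that direction 0.606% of all genes tested were called. At any fold all 7 had an adjusted p under 0.05 in the exact binomial test. That held, with replicate 1 higher, for 17.6% of all genes tested.

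The transcripts of Hsd11b1 were apportioned differently by the 2 kinds of table. GENCODE lists 7, of which Hsd11b1-205 begins furthest upstream, with a first exon of 128 bases at chr1:193263948-193264075. Hsd11b1-201 begins 21446 bases further along and Hsd11b1-202 20514 bases further along. Hsd11b1-205 and Hsd11b1-201 hold the same coding sequence of 876 bases, while Hsd11b1-203 has 786 coding bases and Hsd11b1-202 has 642. In the alignment-based tables, Hsd11b1-205 took 85.3% of the gene's TPM in replicate 1 and 76.2% in replicate 2. In the alignment-free tables the same transcript took 27.6% in replicate 1 and 2.62% in replicate 2. Hsd11b1-201 took 13.9% and 21.4% in the alignment-based tables, and 44.8% and 32.2% in the alignment-free ones. Hsd11b1-202 took 0% and 1.76% in the alignment-based tables, against 27.3% and 30.8% in the alignment-free ones. Hsd11b1-203 was at 0 in both alignment-based tables, and in the alignment-free ones took 0.00181% in replicate 1 and 33.7% in replicate 2. No main transcript or start site was therefore assigned to Hsd11b1, whereas the higher gene level in replicate 2 stood in both kinds of table, with 7.44 TPM in replicate 1 and 31.7 TPM in replicate 2 in the alignment-free ones.

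**Figure D2:**
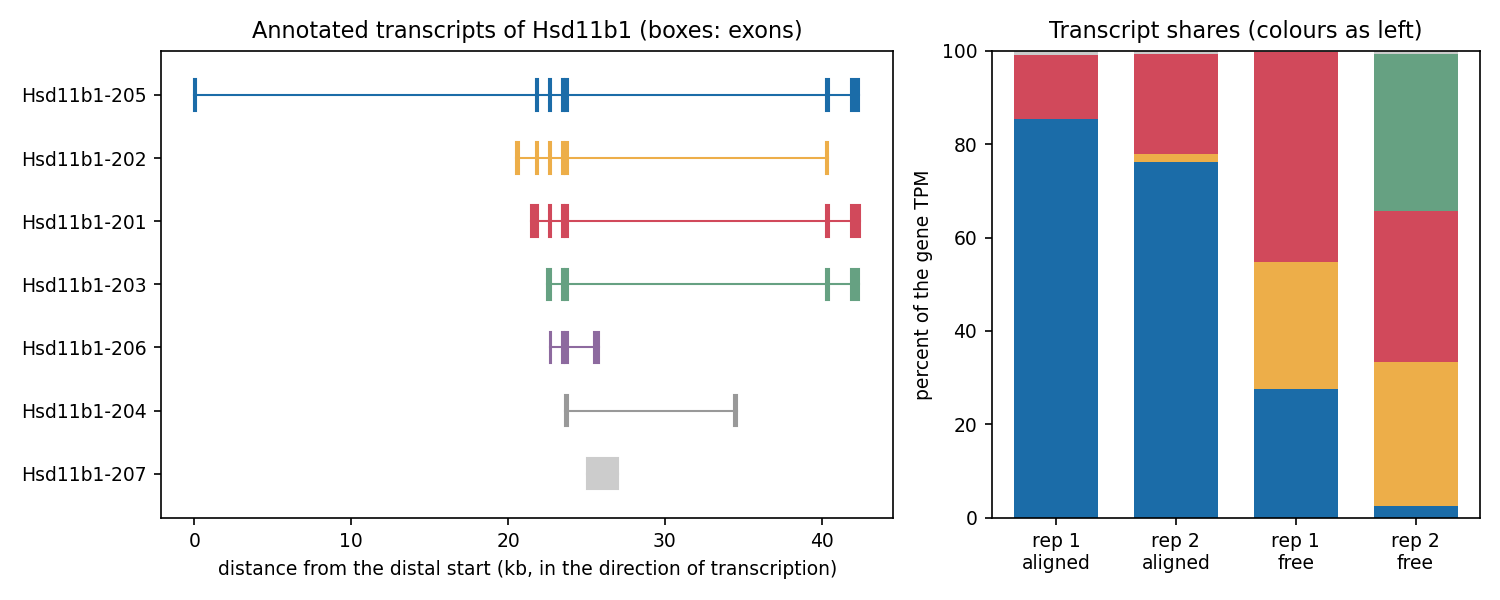
Left, the exons (boxes) of the 7 annotated Hsd11b1 transcripts by distance in kb from the most upstream start. Right, the percent of the gene's TPM taken by each transcript in replicates 1 and 2, first in the alignment-based tables (aligned) and then in the alignment-free ones (free), in the same colours. Hsd11b1-205 (blue) takes 85.3% and 76.2% in the first pair of bars and 27.6% and 2.62% in the second.

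Hsd17b1, Hsd17b3 and Hsd17b2, described here by their action on sex steroids, were low or uneven. Hsd17b1 (ENSMUSG00000019301.5, chr11:101078411-101080527, plus strand), which turns estrone into estradiol, had 0.29 TPM in replicate 1 and 0.22 in replicate 2 (0.255 ± 0.0495, SD, n = 2), from 12 and 8 counts. Hsd17b3 (ENSMUSG00000033122.14, chr13:64058266-64089230, minus strand), the enzyme that makes testosterone from androstenedione in the testis, had 0.07 TPM in replicate 1 and 0.06 in replicate 2, from 2 and 1 counts, which is under the 3 counts that a count of 0 allows. Its ratio between the libraries is not given for that reason. Ratios that pair Hsd17b3 with another gene appear only in the last section, and no result is drawn from them. Neither gene was kept by the filter on low counts.

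Hsd17b2 (ENSMUSG00000031844.8, chr8:117701904-117759027, plus strand), which oxidises estradiol and testosterone to their weaker forms, had 0.22 TPM in replicate 1 and 6.67 in replicate 2 (3.45 ± 4.56, SD, n = 2), from 9 and 242 counts. It was near the level of Hsd17b1 in replicate 1 and above Srd5a1 in replicate 2. The filter left it out of the comparison for its low count in replicate 1. With all 28783 genes of at least 1 count tested, replicate 2 was 26.6-fold higher, a log2 ratio of -4.73 (95% interval -5.95 to -3.86; adjusted p = 4.23e-60, exact binomial test). Without the filter 2 of 10 members were called, Hsd11b1 and Hsd17b2, where 4.17% of all genes tested were (3.4% higher in replicate 2 and 0.771% higher in replicate 1). In the alignment-free counts 1 of 8 members tested was called, again Hsd11b1, where 3.87% of genes were. Hsd17b2 was not among those 8, and its log2 ratio in the alignment-free counts was -5.29. The 12 liver markers had log2 ratios of -5.05 to -3.99, and Hsd11b1 had -1.89. The interval of Hsd17b2, which rests on 9 counts in replicate 1, reached past both ends of the liver span. The hepatocyte product Alb had 76.3 TPM in replicate 1 and 2319 in replicate 2, and the part of liver RNA in the level of Hsd17b2 was not tested.

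Cyp17a1, whose product makes the androgen precursors that Hsd17b3 uses, had 0.50 TPM in replicate 1 and 0.49 in replicate 2. Cyp19a1, the aromatase, had 0 counts in both libraries. Akr1c18, a 20-alpha-hydroxysteroid dehydrogenase and marker of the X-zone of the mouse adrenal cortex, was the most abundant of the 9 genes of this list found, with 393 TPM in replicate 1 and 158 TPM in replicate 2 (log2 ratio 1.40). The cytochrome b5 genes Cyb5b and Cyb5a followed at 118 ± 14.7 and 86.7 ± 4.33 TPM (SD, n = 2). In all, 6 of 9 were detected, of which Akr1c6 and Sult2a8 had under 1 TPM in replicate 1. Of the 5 tested, 1 was called higher in replicate 1 (Akr1c18) and 1 in replicate 2 (Akr1c14), beside 0.606% and 3.38% of all genes tested. Without the filter 7 were tested, and Akr1c6 and Sult2a8 were also called higher in replicate 2, as were 3.4% of all genes tested. The 12 liver markers moved the same way as the 3 genes higher in replicate 2, and their part was not tested. Testis markers summed to 5.31 TPM in replicate 1 and 5.29 TPM in replicate 2, of which the Leydig cell hormone Insl3 gave 2.71 and 3.00 TPM. The gonadotropin receptors Lhcgr and Fshr were at 0.02 and 0.04 TPM and at 0 TPM in both.

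The 3 members described here by a place in lipid metabolism were the highest of the 10. They also had the smallest log2 ratios of counts between the libraries. The grouping is one of description and does not mean that they cannot act on steroids. Hsd17b4 (ENSMUSG00000024507.6, chromosome 18), a multifunctional enzyme of peroxisomal beta-oxidation, had 32.1 TPM in replicate 1 and 34.9 in replicate 2 (33.5 ± 1.96, SD, n = 2), from 2729 and 2585 counts. Its log2 ratio of replicate 1 over replicate 2 was 0.02 with a 95% interval of -0.06 to 0.10. Hsd17b12 (ENSMUSG00000027195.10, chr2:94032689-94157964, minus strand), the 3-ketoacyl-CoA reductase of very long chain fatty acid elongation, had 31.3 TPM in replicate 1 and 33.8 in replicate 2 (32.5 ± 1.80). Its log2 ratio was -0.02 (-0.11 to 0.07). Hsd17b11 (ENSMUSG00000029311.16, chr5:103989762-104021919, minus strand), a lipid droplet protein, had 25.3 TPM in replicate 1 and 25.6 in replicate 2 (25.4 ± 0.212). Its log2 ratio was 0.07 (-0.04 to 0.18), and none of the 3 passed the exact binomial test.

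Hsd17b12 and Hsd17b4 had nearly the same level, with a log2 ratio of Hsd17b12 to Hsd17b4 of -0.04 in replicate 1 and -0.05 in replicate 2. That order depended on the table, since the alignment-free tables gave 0.16 and 0.04. Hsd17b4 exceeded Hsd17b11 by 0.34 in replicate 1 and 0.45 in replicate 2 (0.40 ± 0.07, SD, n = 2). A main transcript took most of each gene in the alignment-based tables: 99.0% in replicate 1 and 95.2% in replicate 2 for Hsd17b4-201, 99.4% and 99.2% for Hsd17b12-201, and 99.3% and 97.8% for Hsd17b11-201. The alignment-free tables gave 15.7% of Hsd17b12 in replicate 1 and 15.9% in replicate 2 to Hsd17b12-205, a processed transcript that the alignment-based tables listed at 0. They also gave 0% of Hsd17b4 in replicate 1 and 15.1% in replicate 2 to Hsd17b4-203, annotated as a retained intron.

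The genes that work with these enzymes were read from lists chosen by function. Of 12 genes for peroxisomal beta-oxidation all 12 were detected, with a median of 13.7 TPM, below Hsd17b4. Among them, Acox2 had 0.54 TPM in replicate 1 and 4.05 in replicate 2. The highest were Scp2, whose product thiolyses branched-chain substrates, at 69.5 ± 14.3 TPM, and the thiolase gene Acaa1a at 42.0 ± 0.297 TPM (SD, n = 2). In this list 4 genes, Ehhadh, Acaa1b, Abcd2 and Acox2, were called higher in replicate 2 and 0 in replicate 1 by the exact binomial test, where 3.38% and 0.606% of all genes tested were. That is the direction of the 12 liver markers, whose part in these 4 and in Elovl2 was not tested. Of 12 elongation genes 10 were detected, led by Tecr, the enoyl-CoA reductase that acts after Hsd17b12, at 132 ± 3.62 TPM, then Elovl5 at 94.1 ± 7.86 TPM and Hacd3 at 82.6 ± 12.2 TPM. Elovl2 was called higher in replicate 2, with 1.42 TPM in replicate 1 and 10.8 TPM in replicate 2, and Elovl7 in replicate 1, at 0.56 and 0.37 TPM. All 10 lipid droplet genes were detected at a median of 31.1 TPM, led by Plin2 (91.8 ± 2.32 TPM), Pnpla2 (78.4 ± 8.03) and Lipe (56.6 ± 9.21), and 0 of 10 were called in either direction, where 3.99% of all genes tested were, while 9 of 10 had an adjusted p under 0.05 with less than 2-fold, beside 33.5% of all genes at any fold.

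Among 7 relatives of the 17-beta-hydroxysteroid dehydrogenases outside the 10 genes, 6 were detected. Hsd17b10, a mitochondrial enzyme of isoleucine breakdown, was the highest at 57.3 ± 1.19 TPM, followed by Hsdl2 at 22.8 ± 1.35 TPM and Hsdl1 at 16.5 ± 1.00 TPM (SD, n = 2). Hsd17b13, a lipid droplet enzyme of hepatocytes, had 0.87 TPM in replicate 1 and 17.6 in replicate 2 (log2 ratio -4.22, adjusted p = 3.63e-147, exact binomial test). It was the 1 called of 6 relatives tested, where 3.38% of all genes tested were called higher in replicate 2. The liver markers were higher in replicate 2 too, and their part in the Hsd17b13 difference was not tested. Hsd17b6, at 0.03 TPM in replicate 1 and 3.15 in replicate 2, was detected through replicate 2 and called only without the filter. Without that filter 2 of 7 relatives were called, both higher in replicate 2, as were 3.4% of all genes tested. H2-Ke6, which RefSeq lists as another name of Hsd17b8 and which was looked up after the list was made, had 54.0 TPM in replicate 1 and 50.9 in replicate 2. The 3-beta-hydroxysteroid dehydrogenases, an earlier step of the pathway, ranged from 2955 ± 676 TPM for Hsd3b1 to 0 counts for Hsd3b4, with 4 of 7 detected. Of those 4, Hsd3b3 had 0.16 TPM in replicate 1 and 5.42 in replicate 2. Without the filter 2 of 6 tested were called, Hsd3b3 and Hsd3b5, both higher in replicate 2, as were 3.4% of all genes tested. The part of liver RNA in these was not tested. Reads of these similar genes may be split between copies.

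**Figure D3:**
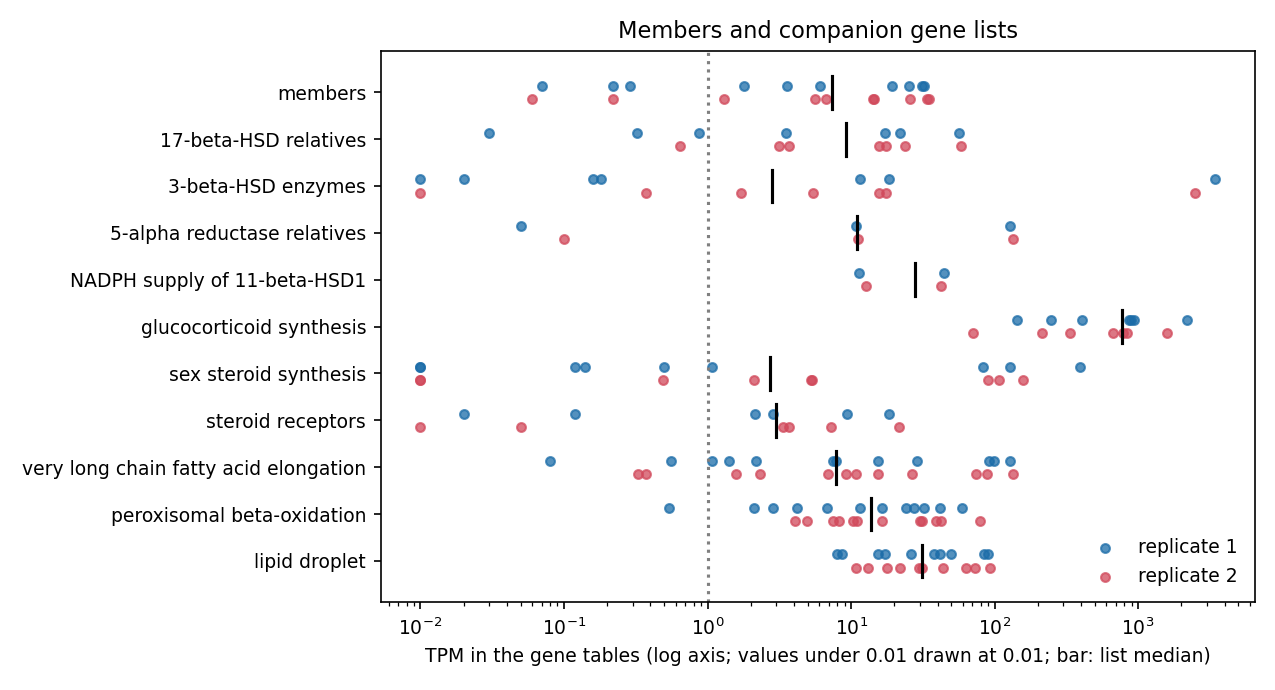
TPM on a log axis of the 10 members (top row) and of each companion list, with replicate 1 above replicate 2 in each row, the list median as a bar and 1 TPM as a dotted line. The members' median of 7.35 TPM lies below those of peroxisomal beta-oxidation (13.7 TPM) and lipid droplet genes (31.1 TPM) and far below that of glucocorticoid synthesis (776 TPM).

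Of the 5-alpha reductases, the type 2 enzyme gene was the more abundant. Srd5a2 (ENSMUSG00000038541.8, chr17:74016955-74047916, minus strand) had 19.2 TPM in replicate 1 and 14.5 in replicate 2 (16.8 ± 3.30, SD, n = 2), from 956 and 653 counts. Replicate 1 was higher by a log2 ratio of 0.49 (95% interval 0.35 to 0.64), with an adjusted p of 2.56e-10 in the exact binomial test and under 2-fold. At any fold, 33.5% of all genes tested had an adjusted p under 0.05, and 3 of the 7 members tested did (Hsd11b1, Srd5a2 and Hsd11b2). All 10 cortex markers were higher in replicate 1 too, by a median log2 ratio of 0.24, and 9 of 10 chromaffin markers, by 0.22. The same held for all 8 zona glomerulosa markers (median 0.27), 4 X-zone markers (0.51) and the 6 kidney markers tested (1.45). All liver, skeletal muscle and erythroid markers and 8 of 10 capsule and stroma markers were higher in replicate 2. The part of these lists in the Srd5a2 difference was not tested. Srd5a1 (ENSMUSG00000021594.11, chr13:69573449-69611442, minus strand) had 6.05 TPM in replicate 1 and 5.57 in replicate 2 (5.81 ± 0.339), from 503 and 423 counts. Its log2 ratio was 0.19 (0.00 to 0.38) with an adjusted p of 0.118, which did not pass.

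The log2 ratio of Srd5a1 to Srd5a2 was -1.66 in replicate 1 and -1.38 in replicate 2 (-1.52 ± 0.20, SD, n = 2), so Srd5a2 was 3.17-fold and 2.61-fold higher. In the alignment-free tables the ratio was -1.94 in replicate 1 and -1.85 in replicate 2. Of 3 relatives of the reductases 2 were detected, Tecr, the highest, and Srd5a3. Of the 2 tested 0 were called, beside 3.99% of all genes tested. Srd5a3, which acts on polyprenol in protein glycosylation, had 10.8 TPM in replicate 1 and 11.1 in replicate 2, between the 2 steroid reductases. Akr1c14, which reduces the 5-alpha products further at the 3 position, had 1.08 TPM in replicate 1 and 5.26 in replicate 2 (log2 ratio -1.98), giving log2 ratios of Srd5a1 to Akr1c14 of 2.49 and 0.08. The alignment-free tables gave 2.57 in replicate 1 and -0.37 in replicate 2, so the order of the 2 genes in replicate 2 depended on the table.

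Some reads of both reductases could belong to other annotated transcripts. CT025731.1, a processed transcript on the same strand (chr17:74026998-74079046), has 3 exons upstream of Srd5a2 and a last exon of 144 bases, chr17:74026998-74027141, that is also coding sequence, a part of Srd5a2 exon 2. Words of 31 bases were searched in 1 transcript of each member. Of the 1575 such words in Srd5a2, 116 (7.37%) occur in CT025731.1. The shared stretch is printed because reads inside it cannot be assigned to either gene by sequence (GENCODE M21 on mm10, minus strand, 5′ to 3′, no part in capitals).
Part of Srd5a2 exon 2 that is the last exon of CT025731.1: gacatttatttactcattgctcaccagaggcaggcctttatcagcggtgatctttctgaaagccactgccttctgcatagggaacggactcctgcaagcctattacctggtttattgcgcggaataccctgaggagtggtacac
CT025731.1 had 299.7 counts in replicate 1 and 250.0 counts in replicate 2, or 13.4 ± 0.735 TPM (SD, n = 2). Srd5a2 held 76.1% of the counts of the pair in replicate 1 and 72.3% in replicate 2, and 76.1% and 74.2% in the alignment-free tables. Srd5a1 shared 447 of its 2614 such words (17.1%) with Gm17108, annotated as sense overlapping, which had 3.82 and 7.72 counts. Nsun2, a gene on the opposite strand that overlaps Srd5a1, had 28.3 TPM in replicate 1 and 28.0 in replicate 2, and Lamb3, opposite to Hsd11b1, had 0.41 and 0.50 TPM. No source used here says whether reads were counted by strand. The 1 transcript searched of each of the other 8 members shared no such word with another gene, and their further transcripts were not searched. Within Srd5a1, Srd5a1-202 took 98.2% of TPM in replicate 1 and 100% in replicate 2 in the alignment-based tables, and 74.7% and 93.7% in the alignment-free ones, which gave 24.0% and 6.26% to the processed transcript Srd5a1-203.

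**Figure D4:**
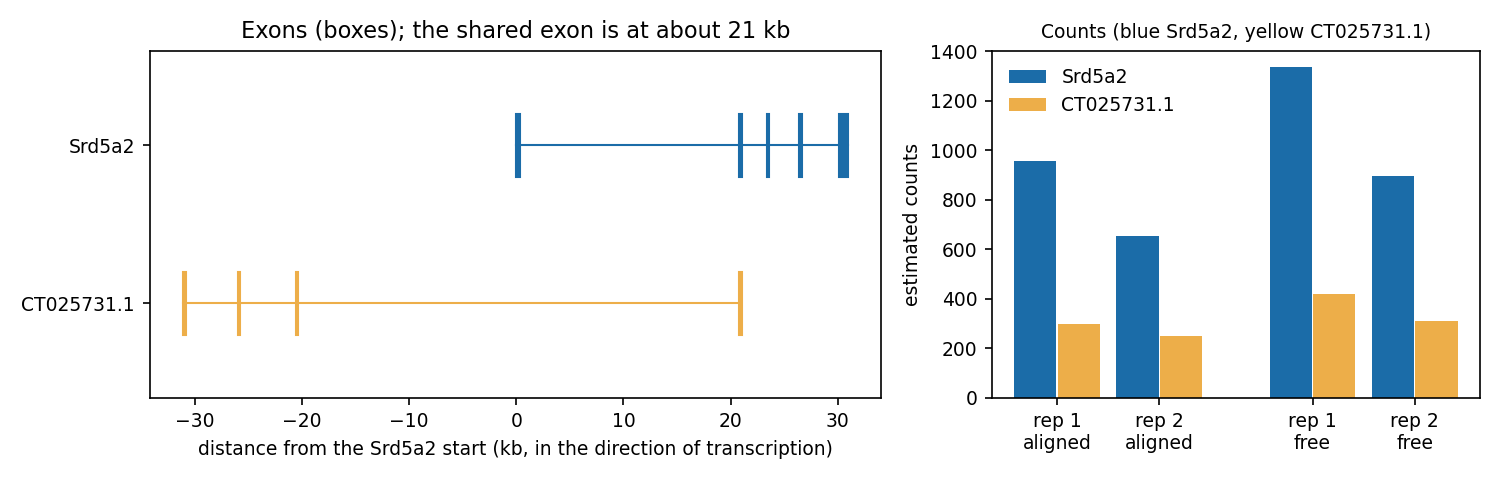
Left, exons (boxes) of Srd5a2 and CT025731.1 by distance in kb from the Srd5a2 start, with the shared stretch at the same place in both rows. Right, estimated counts of Srd5a2 (blue) and CT025731.1 (yellow) in replicates 1 and 2 in the alignment-based (aligned) and alignment-free (free) tables; Srd5a2 is the higher in each pair, with 956 and 653 counts in the first 2 pairs.

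Set side by side, the members fell into those within 2-fold between the libraries and those beyond it. Over all detected genes tested the median size of the log2 ratio was 0.14, and 96.9% lay within 2-fold. Hsd17b4, Hsd17b12, Hsd17b11, Srd5a1, Srd5a2 and Hsd11b2 lay within 2-fold, Hsd11b1 and Hsd17b2 were over 2-fold higher in replicate 2, and 0 members were called higher in replicate 1, where 0.606% of all genes tested were. The deposited tables also differed in scale. Protein-coding genes had a median log2 ratio of gene table over alignment-free TPM of -0.93 in replicate 1 and -0.86 in replicate 2, over 13264 genes. Among the members Srd5a2 had the lowest such ratio, -1.26 ± 0.08 (SD, n = 2), inside the range that held the central 90% of those genes in replicate 1, -1.50 to -0.55.

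**Figure D5:**
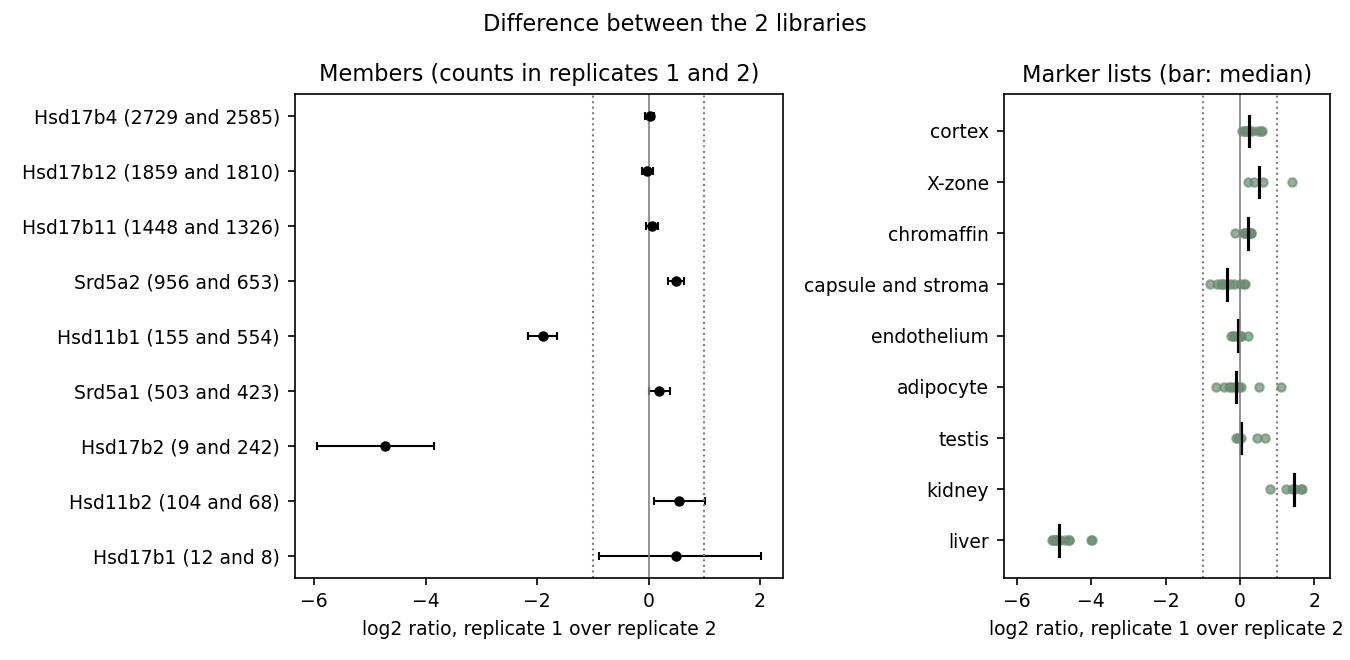
Log2 ratio of replicate 1 over replicate 2, left for 9 members with exact 95% intervals and the counts of replicates 1 and 2 beside each name (Hsd17b3, with 2 and 1 counts, is not drawn), and right for the tested genes of 9 marker lists, with the list median as a bar. Dotted lines mark 2-fold; Hsd11b1 (-1.89) and Hsd17b2 (-4.73) lie left of them, as do the 12 liver markers, and the kidney median (1.45) lies right of them.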

How the data were processed

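Per the labels' protocols, a directional kit was used on 300 ng of total RNA per library, with ERCC spike-ins. The authors deposited for each library an alignment-based gene table, an alignment-based transcript table and an alignment-free transcript table, made against mm10 and GENCODE M21 per the file headers and descriptions; no source used here names the programs or versions. The deposited expected counts share reads among transcripts and were rounded for tests. The TPM values deposited by the authors are scaled by effective length to a fixed total, of which protein-coding genes held 36.6% and 39.2% of TPM in replicates 1 and 2. Transcript shares are percent of a gene's TPM.

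The filterByExpr function of edgeR 4.0.16, run in R 4.3.3, left 18160 genes, and TMM gave the library sizes. With 1 group there are no residual degrees of freedom for a comparison, so an exact two-sided binomial test compared the counts of replicate 1 with replicate 2, adjusted by Benjamini-Hochberg over all genes kept. A call needs an adjusted p under 0.05 and over 2-fold. Log2 ratios are replicate 1 over replicate 2 with a prior count of 0.5, and intervals are Clopper-Pearson; the test was tested on simulated data. P-values measure counting spread between these libraries, not animals. Detection is a mean of 1 TPM. DESeq2 1.42.0 size factors were an alternative. The members and lists were chosen with earlier results of these data known. All members are named, and of each companion list the 3 highest genes and those called, except a few items that are not reported here. Hsd17b8 and Sts were not found under those symbols. Overlaps used words of 31 bases of 1 transcript per member, searched in the annotated transcripts of other genes.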

Additional observations from a re-analysis of the deposited data

How the results depend on the processing

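The log2 ratio of Srd5a1 to Srd5a2 was -1.89 in the alignment-free tables and -0.78 in CPM without length scaling, and that of Hsd17b4 to Hsd17b11 was 0.52 and 0.94. The ratio of Hsd17b12 to Hsd17b4 reversed to 0.10 in the alignment-free tables and was -0.53 in CPM, and that of Hsd17b1 to Hsd17b3, which rests on 2 and 1 counts of Hsd17b3 and is read as no result, was 2.79 in CPM. Counts of called genes were 1201 without the filter on low counts and 1402 at 1.5-fold; called members were 2 without the filter, with Hsd17b2 added. The library ratio of Hsd17b4 reversed to -0.011 with total counts and -0.010 with spike-ins, and that of Hsd17b12 to 0.020 in the alignment-free tables; the cause was not tested. Another 46 recomputed library ratios kept their direction, with no call gained or lost. Some of these are settings in which Hsd17b1, Hsd17b2 or Hsd17b3 was not tested, so that no call could change. The library ratio of Hsd17b2 was newly called without the filter. For Hsd11b2, under 2-fold throughout, the adjusted p of the exact binomial test was 0.0315 to 0.0698, on both sides of 0.05. TPM levels moved by more than the replicate SD in 27 of the recomputed values and not in 23. All 27 were on another scale: alignment-free TPM, TPM over protein-coding genes alone, or CPM. TPM over protein-coding genes is higher for every such gene, alignment-free TPM was higher for most, and CPM is another unit. The 27 therefore cannot show that a level is unstable. Most of those 23 left out 1 replicate, and with 2 replicates such a value always lies within the SD of the mean. They cannot show that a level is stable. The others of the 23 were Hsd11b1 in CPM and Hsd17b2 in CPM and in the alignment-free tables. Hsd17b1 and Hsd17b3 rest on at most 12 counts per library, which limits every value given for them. Leaving out 1 replicate gave 7 to 8 detected members. It gave log2 ratios of 1.00 to 3.44 for Hsd11b1 to Hsd11b2, -1.66 to -1.38 for Srd5a1 to Srd5a2, 0.34 to 0.45 for Hsd17b4 to Hsd17b11, -0.05 to -0.04 for Hsd17b12 to Hsd17b4, 1.87 to 2.05 for Hsd17b1 to Hsd17b3, -6.80 to -1.65 for Hsd17b3 to Hsd17b2, -7.95 to -5.55 for Hsd11b1 to Cyp11b1 and 0.08 to 2.49 for Srd5a1 to Akr1c14. The ratios in this series that hold Hsd17b3 rest on its 2 and 1 counts and are read as no result. No paired analysis was possible because the 2 libraries form 1 group.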
